A study of Sus scrofa with 9 samples.

Results

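The enamel matrix genes and enamel proteases were followed through the deciduous molar germ of the miniature pig (Sus scrofa). The members were 7 gene symbols: AMBN, ENAM, AMEL, AMTN, ODAM, MMP20 and KLK4. Of these, 5 matched a row of the deposited table, which held 34580 rows. No row carried the symbol MMP20 or KLK4, so these proteases were not analysed here. A row named EMSP1, an older name of KLK4 (enamel matrix serine protease 1), falls outside the choice of symbols, and its values are given apart from those of the members. The table's symbol AMEL is listed by RefSeq as a synonym of AMELX. RefSeq holds AMELY as a separate gene with no row in the table, so reads of a Y copy could not be told apart.

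The germs were those of Dm3, a deciduous molar of the lower jaw, dissected at embryonic day 40 (E40), when the enamel organ is a cap, at day 50 (E50), early in its bell form, and at day 60 (E60), late in its bell form. Each stage had 3 libraries. No genetic change or treatment was applied to any group, and the labels do not say whether the libraries of a stage came from separate fetuses, litters or pools of germs. The p-values below therefore measure only the spread between these libraries, which may be technical. Values are FPKM, a read density corrected for transcript length and library depth, so levels are given per length and can be compared between genes.

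Enamel is laid down by ameloblasts, the cells of the inner enamel epithelium after they have differentiated. Secretory ameloblasts release amelogenin (AMEL), ameloblastin (AMBN) and enamelin (ENAM), the proteins that form the scaffold in which enamel crystals lengthen. The protease enamelysin (MMP20) trims these proteins during secretion, and kallikrein 4 (KLK4) clears them during maturation. Amelotin (AMTN) and ODAM (odontogenic ameloblast-associated protein) belong to the later, maturation-stage ameloblast and to the epithelium that joins the gum to the tooth. AMBN, ENAM, AMTN, ODAM and AMEL belong to one family, the secretory calcium-binding phosphoproteins. AMBN, ENAM, AMTN and ODAM lie together in the genome, whereas the amelogenin gene lies on a sex chromosome.

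The libraries fell into a higher-depth and a lower-depth set that did not match the stages. The recovered reads (whole reads worked back from the steps in the FPKM values) numbered 14362235 to 16674750 in the 3 E50 libraries and E60 replicate 1, and 938527 to 1760356 in the 3 E40 libraries and E60 replicates 2 and 3. Over rows of the table, E60 replicate 1 correlated with the E50 libraries at r of 0.959 to 0.971 and with the other E60 libraries at 0.360 and 0.565. E40 against E50 was also lower against higher depth, so stage and library set cannot be told apart in that comparison. Without E60 replicate 1, E60 against E50 was lower against higher depth too, and the same holds there. With library set as a term, the set difference came from the E60 libraries alone. E60 against E50 then rested on replicate 1, and E60 against E40 on replicates 2 and 3. The members' results on E60 are given with and without replicate 1 and within each set. The median log2 fold change of all rows tested was 0.55 for E50 against E40, -0.64 for E60 against E50 and -0.22 for E60 against E40. With median-ratio scaling these medians were -0.14, 0.12 and -0.12, and the rows called higher and lower were 2343 and 4895, 69 and 12, and 402 and 323, against 3296 and 4284, 10 and 4, and 130 and 224 on the values as deposited. On values rescaled to TPM they were 1688 and 4067, 12 and 3, and 126 and 154.

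The tissue label was checked against markers of the tooth germ. All 8 regulators of tooth germs listed, among them MSX1, PAX9, BARX1, LEF1, SHH, DLX2 and LHX8, were above 0 in every library. None of them was called in limma between E60 and E50, where 0.0510% of all rows were called higher and 0.0204% lower. Of the 8, 4 were at an unadjusted p under 0.05 and 0 were called by limma-voom. Without E60 replicate 1, 5 were called lower, where 39.1% of all rows were. Of 8 epithelium markers, KRT17 and CDH3 had no row and CDH1 was listed at 0 in all 9 libraries, while KRT5, the keratin of basal epithelial cells, stood at 858 to 3659.7 FPKM. The E40 libraries also carried markers of the oral surface, whose summed FPKM was 2373 to 3242 at E40 against 164 to 202 at E50 and 93.7 to 182 at E60, with KRT13, a keratin of moist surface epithelium, the highest of them at E40. The summed muscle markers were 204 to 300.0 FPKM at E40 and 8.47 to 29.7 at later stages, and the erythroid markers 225 to 389, 728 to 1026 and 96.2 to 674 FPKM at E40, E50 and E60.

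AMBN, AMEL and ENAM were low at E40 and E50 and were among the highest transcripts of the table at E60. AMBN, which encodes an adhesive matrix protein, stood at 5.58, 6.48 and 2.77 FPKM in the 3 E40 libraries and at 4.61, 4.02 and 2.95 FPKM in the E50 libraries. In E60 replicates 1, 2 and 3 it reached 10410.0, 2181 and 5371 FPKM. The lowest E60 library was far above the highest earlier one, and AMBN ranked 2, 21 and 9 among all rows of those libraries. The mean was 4.94 ± 1.93 at E40, 3.86 ± 0.840 at E50 and 5987 ± 4149 FPKM at E60 (SD, n = 3 each).

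AMEL, the main protein of forming enamel, stood at 9.58, 14.7 and 6.79 FPKM at E40 and at 5.52, 4.93 and 3.84 FPKM at E50. At E60 it reached 6991, 990.1 and 2686 FPKM, which placed it at rank 3, 47 and 16 of the rows. The means were 10.3 ± 3.99, 4.76 ± 0.85 and 3556 ± 3094 FPKM (SD, n = 3 each). As for AMBN, replicate 1 was the highest and replicate 2 the lowest of the E60 libraries.

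ENAM, the largest and least abundant of the secretory enamel proteins, stood at 1.09, 1.22 and 1.55 FPKM at E40. Its E50 values of 0.209, 0.107 and 0.0534 FPKM lay below those of every E40 library. It reached 890.5, 212 and 327 FPKM at E60, or rank 72, 204 and 183, in the same order of libraries as AMBN and AMEL. The means were 1.28 ± 0.235, 0.123 ± 0.0792 and 477 ± 363 FPKM (SD, n = 3 each).

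The early levels rested on few reads. Over the 3 E40 libraries AMBN had 7 to 13 reads per library, AMEL 7 to 12 and ENAM 4 to 8, whereas over the E50 libraries they had 81 to 129, 43 to 64 and 3 to 12. At E60 replicate 1 held 320588 AMBN, 87788 AMEL and 56167 ENAM reads, and even the shallow replicate 2 held 5749, 1064 and 1147. Because ENAM was divided by a transcript of 3908 bases and AMEL by one of 778 bases, replicate 2 held more ENAM than AMEL reads while its FPKM was 212 for ENAM and 990.1 for AMEL.

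**Figure D1:**
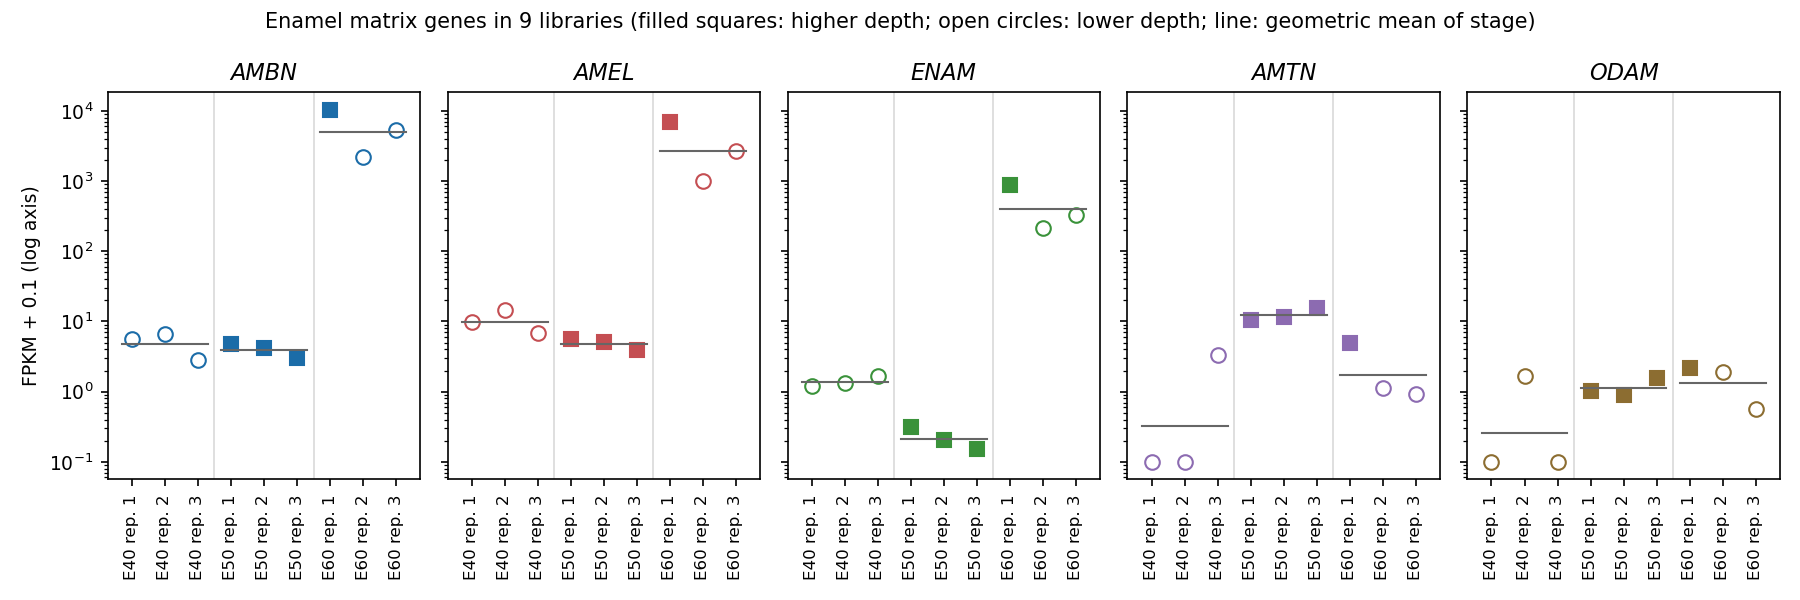
FPKM + 0.1 (log axis) of the 5 genes in each of the 9 libraries, with filled squares for the higher-depth and open circles for the lower-depth libraries and a line at the geometric mean of FPKM + 0.1 of each stage. AMBN, AMEL and ENAM in the 3 E60 libraries lie between 212 and 10410.0 FPKM, above every E40 and E50 library, while AMTN is highest at E50 and ODAM overlaps between stages.

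In the comparison of E60 with E50, 3 of the 5 members rose and none fell, where 0.0510% of 19618 rows tested were called higher and 0.0204% lower. The log2 fold change of log2(FPKM + 0.1) was 10.85 (SE 0.57) for ENAM, 10.31 (SE 0.57) for AMBN and 9.10 (SE 0.64) for AMEL, with limma adjusted p of 9.73e-05, 0.000102 and 0.000637. They were the rows ranked 1, 2 and 3 by log2 fold change. Without E60 replicate 1 the log2 fold changes were 10.26, 9.78 and 8.40, with limma adjusted p of 3.60e-06, 4.23e-06 and 6.21e-06. Their ranks were then 12, 15 and 81 of 19493, in a fit that called 20.0% of rows higher and 39.1% lower.

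Against E40 the same 3 members rose at E60, where 0.663% of rows were called higher and 1.14% lower. The log2 fold change was 10.03 (SE 0.57) for AMBN, 8.17 (SE 0.57) for ENAM and 8.06 (SE 0.64) for AMEL, with limma adjusted p of 0.000109, 0.000248 and 0.000502. AMBN was rank 1, ENAM rank 3 and AMEL rank 4 of all rows. Without E60 replicate 1 the values were 9.49, 7.59 and 7.36 and the ranks 1, 5 and 6, and 1.37% of rows were called higher and 4.68% lower. With library set as a term the estimates were the same 9.49, 7.59 and 7.36, since that fit also compares E60 replicates 2 and 3 with E40. All 3 were called higher there, where 1.41% of rows were called higher and 4.48% lower. The comparisons with E50 and with E40 share the E60 libraries.

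The rise at E60 was also present within each library set. Between libraries of higher depth, E60 replicate 1 exceeded the mean of the E50 libraries by 12.02 for ENAM, 11.38 for AMBN and 10.50 for AMEL on the log2 scale, the 3 largest differences of 19618 rows, whose median was -0.07. Between libraries of lower depth, E60 replicates 2 and 3 exceeded the mean of the E40 libraries by 9.49 for AMBN, 7.59 for ENAM and 7.36 for AMEL, at ranks 1, 5 and 6 and with a median over rows of -0.46. These are the same differences as those given above without E60 replicate 1, not separate estimates. No E60 value overlapped an earlier value in either set for these 3 genes. In the higher-depth set, with 1 E60 library, AMTN (-1.34) and ODAM (0.95) did not overlap either. The share of all rows without overlap was not counted, so nothing is drawn from this. As a share of recovered reads the higher-depth set gave 2687-fold for AMBN (95% exact interval 2416 to 2999), 7234-fold for ENAM (4778 to 11544) and 1463-fold for AMEL (1259 to 1711). The lower-depth set gave 837-fold for AMBN (586 to 1241), 211-fold for ENAM (131 to 362) and 192-fold for AMEL (131 to 295). These intervals, like all those of reads below, cover counting error only.

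**Figure D2:**
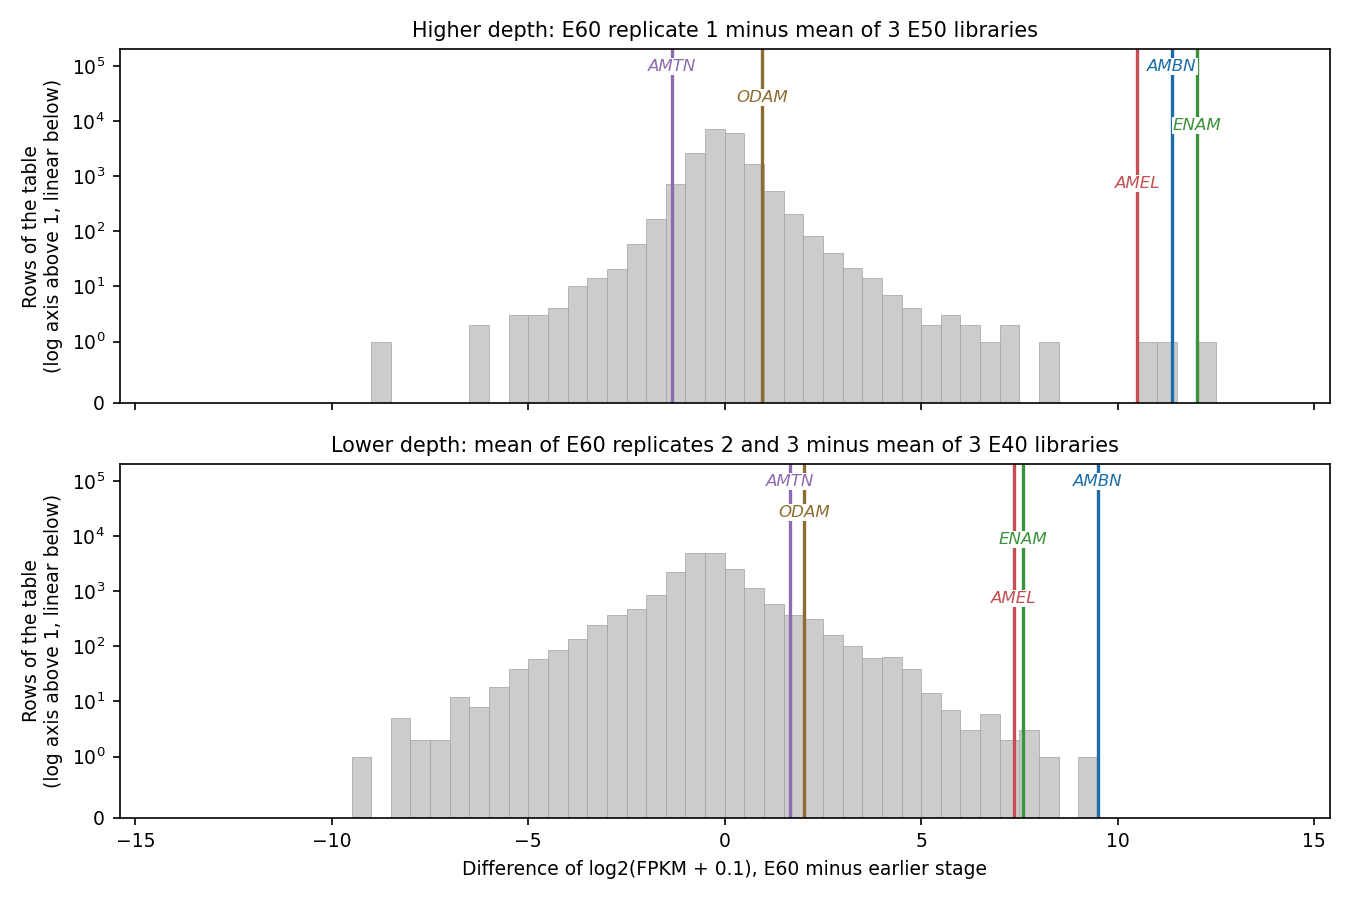
Number of rows by their difference in log2(FPKM + 0.1) between E60 and the earlier stage of the same depth (grey bars, log axis above 1), with the 5 genes as coloured lines. ENAM, AMBN and AMEL lie at 12.02, 11.38 and 10.50 in the higher-depth set, beyond every other row, and at 7.59, 9.49 and 7.36 in the lower-depth set, while AMTN and ODAM lie between -1.34 and 2.03.

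The size of induction was ordered differently against the 2 earlier stages. Over E50, each of the 3 E60 libraries gave ENAM the largest log2 difference (12.02, 9.95 and 10.58), then AMBN (11.38, 9.13 and 10.43), then AMEL (10.50, 7.68 and 9.12). Over E40, AMBN was first in each library (11.10, 8.84 and 10.14), while ENAM (9.34, 7.28 and 7.90) and AMEL (9.46, 6.64 and 8.08) exchanged places. The order over E50 rested on the very low E50 level of ENAM: with a pseudocount of 1 in place of 0.1 the difference between AMBN and ENAM changed sign.

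The sizes of induction of AMBN and AMEL were compared by their ratio within each library, which does not depend on the scaling between libraries. The ratio of AMBN to AMEL in FPKM was 0.583, 0.442 and 0.408 at E40 and 0.835, 0.816 and 0.768 at E50. It was 1.49, 2.20 and 2.0 at E60, with 95% counting intervals of 1.48 to 1.5, 2.06 to 2.35 and 1.93 to 2.07. AMBN was thus the higher of the pair in all 3 E60 libraries, whereas in each of the 6 earlier libraries the interval included 1. The means were 0.477 ± 0.0927, 0.806 ± 0.0344 and 1.90 ± 0.368 (SD, n = 3 each). With 0.1 FPKM added, the log2 ratio was higher by 1.21 at E60 than at E50 and by 1.97 than at E40 without overlap between stages, each with an exact two-sided permutation p of 0.10, the smallest that 3 against 3 libraries can give.

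The ratios to ENAM moved with the low ENAM level at E50. AMBN to ENAM was 5.12, 5.33 and 1.79 at E40, 22, 37.5 and 55.3 at E50, and 11.7, 10.3 and 16.4 at E60. On these ratios the mean log2 ratio at E60 differed by 1.78 from E40 and by -1.51 from E50, both without overlap (exact permutation p = 0.10 each). With 0.1 FPKM added to each value, as in the fits, the differences were 1.86 (exact permutation p = 0.10) and -0.54 (exact permutation p = 0.200), and with 1 FPKM added the latter was 1.54. AMEL to ENAM was 7.85, 4.66 and 8.22 at E60, within the range of 4.40 to 12.1 seen at E40, and its mean log2 ratio differed from E40 by -0.21 (exact permutation p = 0.600), or -0.12 with 0.1 FPKM added (exact permutation p = 0.900). From E50 it differed by -2.73, or -1.75 with 0.1 FPKM added (exact permutation p = 0.10 each), and by 0.39 with 1 FPKM added. The tests with 0.1 FPKM added were part of a family of 15, from 5 pairs of members over 3 comparisons. Those with nothing added came on top, for the pairs of AMBN, AMEL and ENAM over the same comparisons. None could reach the 0.05 threshold before or after adjustment.

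**Figure D3:**
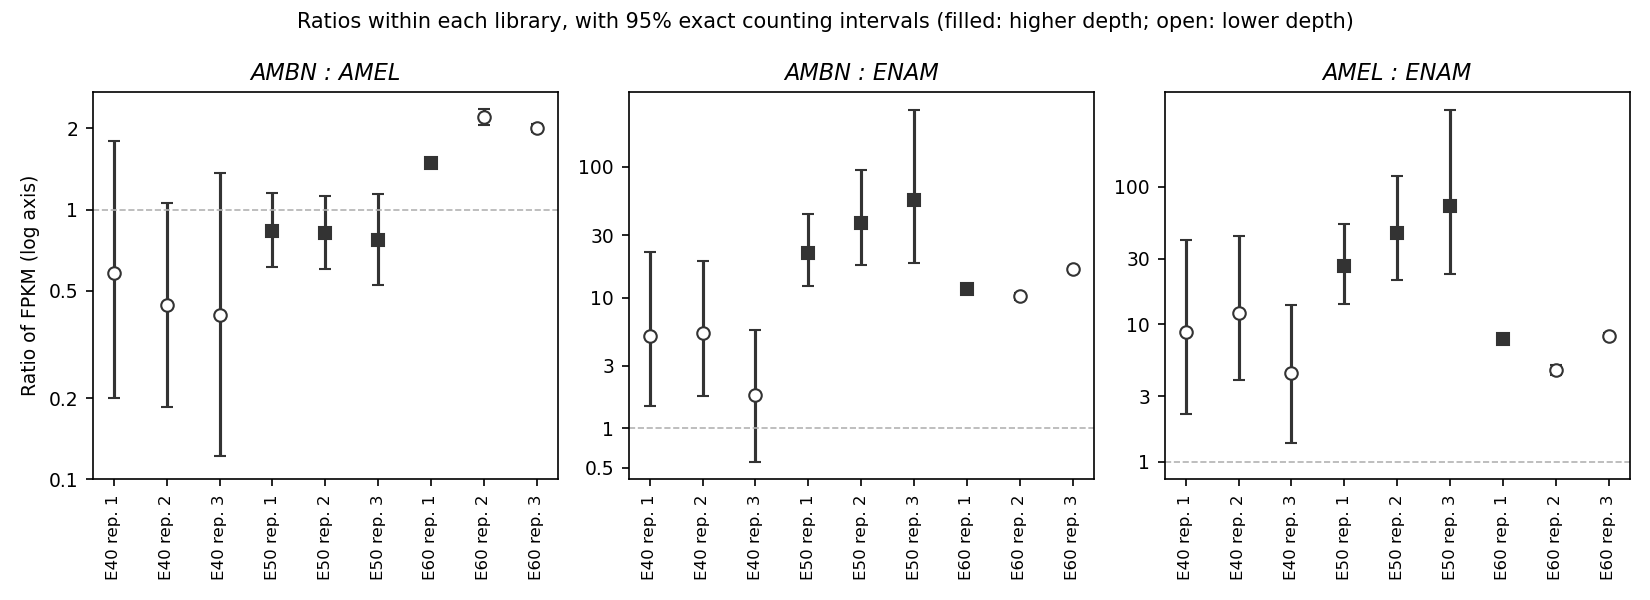
Ratio of FPKM (log axis) of AMBN to AMEL, AMBN to ENAM and AMEL to ENAM in each library, with 95% exact counting intervals and a dashed line at 1. AMBN to AMEL is 1.49 to 2.20 in the E60 libraries with narrow intervals and below 1 in the earlier ones with intervals that include 1, and both ratios to ENAM are highest in the E50 libraries.

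Within the E60 libraries the 5 members followed the same order of level for their 3 most abundant genes, AMBN above AMEL above ENAM. AMBN made up 56.9%, 64.4% and 64.1% of the members' summed FPKM in replicates 1, 2 and 3. AMEL made up 38.2%, 29.2% and 32.0%, and ENAM 4.87%, 6.27% and 3.90%. The 3 libraries were alike in this make-up although their AMBN levels ranged from 2181 to 10410.0 FPKM. AMTN made up at most 0.0308% there.

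Before E60 the make-up was different. AMEL held the largest share at E40, with 59.0%, 61.3% and 47.2%, although on reads AMBN and AMEL differed by at most 3 per library. AMTN held the largest share at E50, with 48.3%, 54.0% and 65.2%. ENAM was under 1% of the members' FPKM in every E50 library, at 0.961%, 0.501% and 0.224%.

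The 5 members together took 3.59%, 0.580% and 1.37% of all FPKM in E60 replicates 1, 2 and 3. By reads these were 464637, 7964 and 23981, or 2.88%, 0.577% and 1.36% of recovered reads. They took 0.00233% to 0.00380% of summed FPKM at E40 and 0.00257% to 0.00428% at E50. All 3 E60 libraries thus lay above all earlier ones, and they differed among themselves by more than the members' make-up did.

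**Figure D4:**
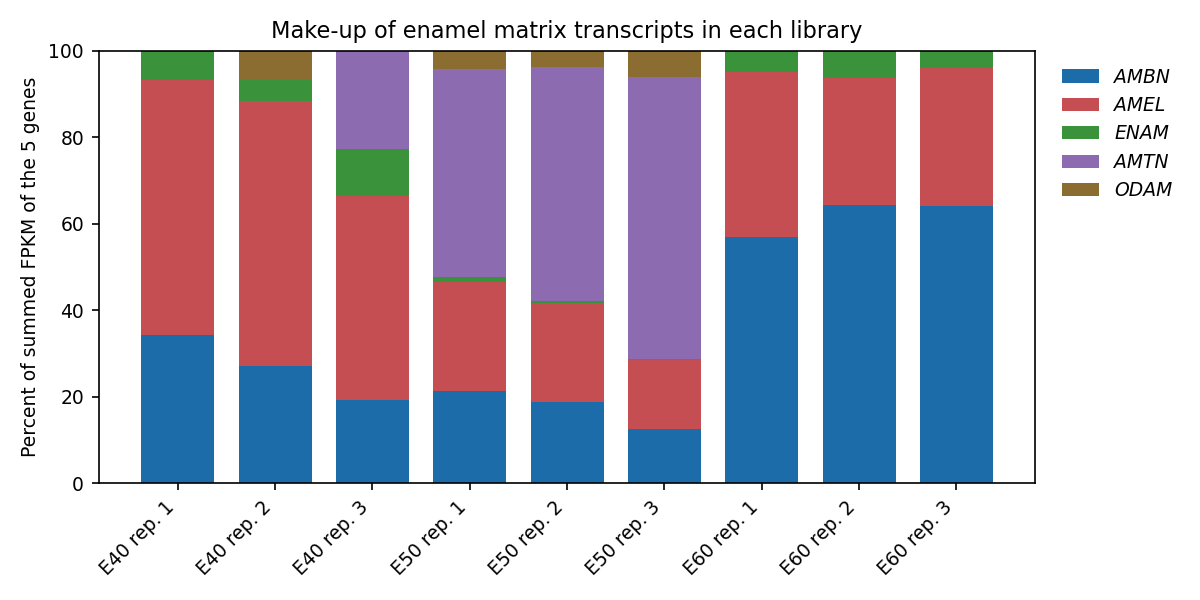
Share of the 5 genes in their summed FPKM (percent, stacked to 100) in each of the 9 libraries. AMBN is 56.9% to 64.4% in the E60 libraries, AMTN is the largest share in the E50 libraries at 48.3% to 65.2%, and AMEL in the E40 libraries at 47.2% to 61.3%.

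The difference among E60 libraries was set beside the epithelium markers. The 6 of 8 markers with a row summed to 3269.7 to 4704 FPKM at E40, 2169 to 3076 at E50 and 3004, 1214 and 3732 in E60 replicates 1, 2 and 3. None of the 5 tested was called in limma between E60 and E50, where 0.0510% of all rows were called higher and 0.0204% lower. Of the 5, 1 was at an unadjusted p under 0.05, 0 were called by limma-voom and the median log2 fold change was -0.31. Without E60 replicate 1, EPCAM (-2.20, limma adjusted p = 0.00180) and CLDN7 (-2.16, limma adjusted p = 0.00295), genes of epithelial cell contacts, were called lower, 2 of the 5 tested where 39.1% of all rows were. The members' summed FPKM was 0.00306 to 0.00621 of that of the epithelium markers at E40, 0.00759 to 0.00988 at E50 and 6.09, 2.79 and 2.25 at E60. Relative to these markers, a sum carried mainly by KRT5 and KRT14, the members were therefore still higher in every E60 library than in any earlier one. The E40 libraries also carried oral surface markers, and how far that sum stands for enamel epithelium at each stage was not tested. In whole germs, a larger share of ameloblasts and more RNA of these genes per cell cannot be told apart.

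Between E40 and E50, 2 members were called, ENAM lower and AMTN higher, where 21.8% of rows were called lower and 16.8% higher. ENAM differed by -2.68 (SE 0.57, limma adjusted p = 0.0130), and both members kept their calls without E60 replicate 1, where 24.2% of rows were called lower and 30.5% higher. With library set as a term, where 0.194% of rows were called lower and 0.0612% higher, ENAM differed by -4.43 (limma adjusted p = 0.0373). It rested on 22 reads at E50 and 17 at E40, and as a share of recovered reads it was 0.0939-fold at E50 (95% exact interval 0.0476 to 0.188). With a pseudocount of 1 ENAM was not called. AMEL differed by -1.05 (SE 0.64, limma adjusted p = 0.201) and AMBN by -0.29 (SE 0.57, limma adjusted p = 0.689). AMEL was called lower with median-ratio scaling (-1.70, limma adjusted p = 0.0224), where 24.7% of rows were.

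AMTN followed another course from the secretory genes. It was at 0, 0 and 3.27 FPKM in the E40 libraries, where 3 reads would have been 4.61, 4.11 and 3.27 FPKM. It stood at 10.5, 11.6 and 15.6 FPKM at E50, from 107, 134 and 155 reads, and at 4.83, 1.04 and 0.819 FPKM at E60, from 54, 1 and 1 reads. Every E50 library was above every other library. The means were 1.09 ± 1.89, 12.6 ± 2.65 and 2.23 ± 2.25 FPKM (SD, n = 3 each).

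AMTN was higher at E50 than at E40 by 5.27 (SE 1.30, limma adjusted p = 0.0171), but with library set as a term the difference was 3.01 (limma adjusted p = 0.886). Its size depended on the pseudocount, at 7.49 with 0.01 and 3.05 with 1, and was 3.24 with limma-voom. As a share of recovered reads AMTN was 9.57-fold at E50 over E40 (95% exact interval 3.25 to 46.6). The difference between E60 and E50 was -2.85 (SE 1.30, limma adjusted p = 0.167). It was -3.60 without E60 replicate 1 (limma adjusted p = 0.0465), and AMTN was then the only member called lower, where 39.1% of all rows were and their median was -0.94. Between libraries of higher depth the read rate of AMTN in E60 replicate 1 was 0.386 of that at E50 (95% exact interval 0.285 to 0.514). Between libraries of lower depth only 2 reads at E60 and 3 at E40 were seen, a ratio of 0.703 with an interval of 0.0587 to 6.14, so no difference was detectable at this depth. At E50 AMTN was itself low, with a mean of 12.6 FPKM from 396 reads. AMBN was then at 3.86 FPKM (338 reads), AMEL at 4.76 FPKM (170 reads) and ENAM at 0.123 FPKM (22 reads). AMEL had stood at 14.7 FPKM in E40 replicate 2. Whether AMTN set in before these genes was not tested.

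ODAM was low throughout. It stood at 0, 1.58 and 0 FPKM at E40, 0.907, 0.797 and 1.45 FPKM at E50 and 2.06, 1.81 and 0.472 FPKM at E60, and the stages overlapped. The read counts were 0, 2 and 0, then 16, 16 and 25, then 40, 3 and 1. It was not called in any comparison on all 9 libraries, with log2 fold changes of 0.25 (SE 1.14, limma adjusted p = 0.870) for E60 against E50, 2.38 (SE 1.14, limma adjusted p = 0.302) for E60 against E40 and 2.13 (SE 1.14, limma adjusted p = 0.154) for E50 against E40. The first of these was -0.10 without E60 replicate 1, and the last was 0.57 with a pseudocount of 1. In the higher-depth set the read rate of E60 replicate 1 was 1.99 times that of E50 (95% exact interval 1.29 to 3.03).

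The row EMSP1 held 6 reads in all. These were 4 in E50 replicate 1 (0.235 FPKM), 1 in E50 replicate 3 (0.0600 FPKM) and 1 in E60 replicate 1 (0.0535 FPKM). The other 6 libraries were at 0, where 3 reads would have been 0.155 FPKM in E50 replicate 2 and 1.47 to 2.76 FPKM in the 5 lower-depth libraries.

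Other genes needed for enamel formation moved less than the 3 secretory matrix genes. Of 22 such genes, 19 had a row and 16 were tested. The largest log2 fold change among them between E60 and E50 was 3.02, for ACPT, against 9.10 to 10.85 for the 3 matrix genes. None was called in limma on all 9 libraries, where 0.0510% of rows were called higher and 0.0204% lower. A count of 0 of 16 is near that share, so nothing is drawn from it. Of the 16, 9 were at an unadjusted p under 0.05, 9 had a log2 fold change above 0, and limma-voom on the recovered reads called 3. The median of 0.61 compares with -0.64 over all rows. Without E60 replicate 1, 6 were called higher and 5 lower, where 20.0% and 39.1% of rows were. With library set as a term 3 were called higher, ACPT and LAMA3 among them, where 0.0867% of rows were called higher and 0.0204% lower.

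Of the genes that anchor ameloblasts to the basement membrane, LAMA3, a laminin chain of epithelial basement membranes, stood at 6.83, 7.90 and 11 FPKM at E40 and 8.12, 9.47 and 8.28 FPKM at E50. It reached 137, 36.4 and 66.7 FPKM at E60 without overlap. LAMA3 rose against E40 by 3.03 (SE 0.48, limma adjusted p = 0.0169), and by 2.54 without E60 replicate 1 (limma adjusted p = 0.00559). The difference from E50 was 2.99 (SE 0.48, limma adjusted p = 0.0849) on all 9 libraries. It was called higher, by 2.5, without E60 replicate 1 (limma adjusted p = 0.000324), by 2.97 with limma-voom (adjusted p = 0.0429) and by 3.77 with median-ratio scaling (limma adjusted p = 0.000279).

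ACPT, the testicular acid phosphatase now named ACP4 and mutated in hereditary enamel defects, stood at 3.59, 4.81 and 3.40 FPKM at E40 and 1.95, 1.55 and 2.39 FPKM at E50. It was at 31.7, 7.73 and 17.9 FPKM at E60. The difference between E60 and E50 was 3.02 (SE 0.54, limma adjusted p = 0.130) on all 9 libraries and 2.54 without E60 replicate 1 (limma adjusted p = 0.00102). RELT, a receptor of the tumour necrosis factor family, differed by 2.96 (limma adjusted p = 0.0849) and by 2.79 without replicate 1 (limma adjusted p = 0.000824). FAM20A, a secreted pseudokinase, was called higher by 1.10 in that second fit (limma adjusted p = 0.00714), where stage and library set cannot be told apart. Against E40 on all 9 libraries, FAM20A differed by -0.05, RELT by 0.80 and ACPT by 2.05 (limma adjusted p = 0.961, 0.375 and 0.108).

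The transcription factors SP6 and DLX3 were called between E40 and E50, a comparison that cannot be told apart from library set. On this list 3 of 16 genes were called higher and 2 lower there, where 16.8% of rows were called higher and 21.8% lower. SP6, a factor required for ameloblast differentiation, stood at 19.7, 28.5 and 34.0 FPKM at E40, 158, 108 and 148 at E50 and 183, 65.8 and 171 at E60. It was higher at E50 than at E40 by 2.35 (limma adjusted p = 0.0124) and at E60 than at E40 by 2.25 (limma adjusted p = 0.0449), or 1.99 without E60 replicate 1 (limma adjusted p = 0.0345). DLX3, a homeobox factor of enamel and hair, was higher at E50 by 2.78 (limma adjusted p = 0.0124), from 1.78 to 3.58 FPKM at E40 to 16.4 to 22.2 FPKM at E50. With library set as a term none of the 16 was called between E40 and E50, with 6 at an unadjusted p under 0.05. Also called between E40 and E50 on all 9 libraries were CTSC, a lysosomal protease, higher by 1.93, and FAM20A and RELT, lower at -1.33 and -2.16 (limma adjusted p = 0.0158, 0.0202 and 0.0131). The genes called lower between E50 and E60 without E60 replicate 1 were DLX3, TUFT1, CTSC, CNNM4 and TIMP2, at -1.06 to -1.95 against a median of -0.94 over all rows.

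Genes of enamel maturation were near the detection limit. C8H4orf26, the row of the acidic enamel phosphoprotein gene ODAPH, held 5 reads in all libraries. WDR72 and SLC24A4, which act in protein uptake and calcium transport of the maturation-stage ameloblast, held 89 and 79 reads and did not pass the filter of 1 FPKM in 2 libraries.

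Of the members' relatives in the secretory calcium-binding phosphoprotein family, DMP1 and DSPP of the dentin side were also higher at E60. Of 9 such genes 5 were tested, and 1 was called higher between E60 and E50 and 2 between E60 and E40, where 0.0510% and 0.663% of rows were. The bone-side relatives SPP1 (-0.30 against E50 and 0.13 against E40) and IBSP (0.72 and 0.41) were not called. DMP1, a matrix protein of odontoblasts and osteocytes, stood at 0.689, 2.15 and 0.732 FPKM at E40, 0.948, 1.32 and 0.945 at E50 and 55.5, 15.9 and 36.7 at E60. It rose by 4.79 (SE 0.61, limma adjusted p = 0.0373) against E50 and by 4.81 (SE 0.61, limma adjusted p = 0.00677) against E40, or 4.39 and 4.41 without E60 replicate 1 (limma adjusted p = 0.000320 and 0.00569). DSPP, the precursor of the main dentin proteins, went from 2.62, 1.41 and 0 FPKM at E40 and 1.31, 1.42 and 0.857 at E50 to 393, 174 and 194 FPKM. DSPP rose by 8.32 (SE 1.06, limma adjusted p = 0.00677) against E40 and differed by 7.54 (SE 1.06, limma adjusted p = 0.0536) from E50, or 7.95 and 7.18 without E60 replicate 1 (limma adjusted p = 0.00970 and 0.00105).

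Enamel and dentin matrix genes were thus both higher than at E40 in the same E60 libraries. The 7 of 8 bone and odontoblast markers with a row, a list that includes DSPP and DMP1, summed to 17.3 to 30.9 FPKM at E40, 12.9 to 14 at E50 and 577, 224 and 282 FPKM at E60, with ALPL listed at 0 in all 9 libraries. DSPP made up most of the E60 sum, with PHEX and DMP1, while BGLAP (-1.87 against E40) and IBSP were not called. AMBN alone was at 10410.0, 2181 and 5371 FPKM in those E60 libraries. The part of odontoblasts in the members' values was not tested. The summed FPKM of 8 mesenchyme markers, carried mainly by VIM, COL1A2 and COL3A1 and not followed by TWIST1 and COL1A1, was higher in the libraries of higher depth, at 1494 to 2316 FPKM at E40, 5805 to 6383 at E50 and 7149.8, 1503 and 3056 at E60.

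Genes beside the members on the chromosome did not share the size of their rise. In the order of RefSeq on Sscrofa11.1, 19 genes ran from the casein CSN1S1 to MOB1B, among them ODAM and, side by side, AMTN, AMBN and ENAM. Of the 15 others, 10 had a row and 5 were tested, CSN3, UTP3, RUFY3, GRSF1 and MOB1B. None of these was called in limma between E60 and E50, where 0.0510% of all rows were called higher and 0.0204% lower. Of the 5, 4 were at an unadjusted p under 0.05 and 0 were called by limma-voom. Without E60 replicate 1, CSN3 was called higher (4.99) and UTP3, GRSF1 and MOB1B lower (-1.18, -2.44 and -3.27), where 20.0% and 39.1% of all rows were and the median was -0.94. CSN1S1, CSN1S2 and CSN2 held 5, 4 and 2 reads in all libraries. CSN3, a milk protein gene, stood at 1.04 to 1.47 FPKM at E40, 0 at E50 and 0.171, 3.0 and 3.14 FPKM at E60, from 12 reads in all. The genes beyond ENAM, from UTP3 to MOB1B, had log2 fold changes of -0.43 to -2.10. AMTN lies directly beside AMBN but differed by -2.85, against 10.31 for AMBN and 10.85 for ENAM.

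**Figure D5:**
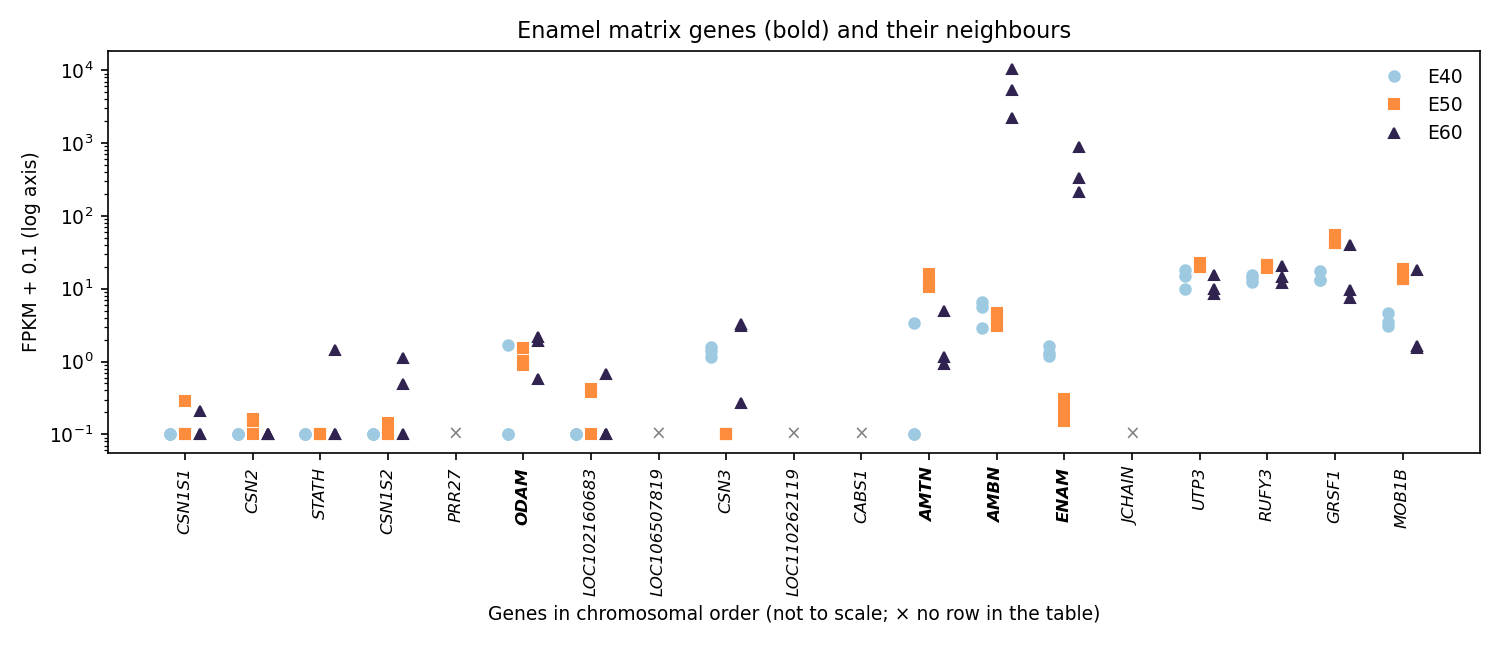
FPKM + 0.1 (log axis) in the 9 libraries of the genes from CSN1S1 to MOB1B in RefSeq order on Sscrofa11.1, with members in bold and crosses for genes without a row. AMBN and ENAM in the E60 libraries, at 212 to 10410.0 FPKM, stand above all other genes shown, and AMTN beside them is at most 15.6 FPKM.

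The genes with the pattern most like the mean of the 5 members over the 9 libraries were sought among 15272 rows with a range of at least 2 log2 units. Among the highest Pearson r were those of PHEX (0.988), SLC15A1 (0.984), DMP1 (0.98), LAMA3 (0.979), PLSCR5 (0.979), CASR (0.975) and GALR1 (0.974). These r describe a contrast of 3 E60 libraries with 6 earlier ones and share its depth sets. PHEX, an endopeptidase of bone and tooth cells, stood at 0.514 to 0.724 FPKM in the 6 earlier libraries and at 102, 22.7 and 38.8 FPKM at E60. It rose by 5.94 against E50 (limma adjusted p = 0.00678) and by 5.96 against E40 (limma adjusted p = 0.00210), or 5.34 and 5.36 without E60 replicate 1 (limma adjusted p = 2.08e-05 and 0.000444). CASR, the receptor for extracellular calcium, stood at 0.322 to 1.15 FPKM before E60 and at 10.6, 5.26 and 6.02 FPKM there.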

How the data were processed

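RNA of Dm3 germs was depleted of rRNA, made into directional libraries and sequenced as paired ends, and the authors aligned the reads with TopHat. The submitters' processing notes name Sscrofa10.2. For their comparisons the authors name DESeq and Cuffdiff, and for the volcano plot of mRNAs EBSeq. The annotation, and which program gave the deposited FPKM, are not given in the sources used here. The authors deposited FPKM values with no stated scaling between libraries. Groups came from the labels. Whole reads were recovered from the FPKM steps of all 28963 rows above 0 (each value within 0.002 of a whole number), giving the depths and the transcript lengths the values were divided by.

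The test was limma 3.58.1 (R 4.3.3, mean-variance trend) on log2(FPKM + 0.1) in 1 fit of 9 libraries, over rows that reached 1 FPKM in 2 or more libraries, with Benjamini-Hochberg adjustment over those rows. A row was called when its adjusted p was below 0.05 and its log2 fold change was 1 or more in size, and "rose", "fell", "higher" and "lower" follow it. The pseudocount affects the log2 fold changes of low genes. It can understate them, or overstate them where a library of low depth is at 0. Ratios between members were compared by exact two-sided permutation tests. Scripts were tested on simulated data. For E60 against E50 the simulation called 13 of 99 rows given a log2 fold change of 2 and 90 of 100 given one of 4. A row that was not called may therefore still have changed. Named were all members, the called genes of each list, the 8 genes most like the members and the neighbours, except a few that are not reported here. The members and lists were chosen with earlier results of these data known. Symbols were matched to RefSeq (Sscrofa11.1) for names and gene order only. Other steps ran in Python 3.11.15 (scipy 1.17.1, pandas 2.3.3, numpy 2.4.6, matplotlib 3.10.9). Alternatives were other pseudocounts, filters and scalings, library set or replicate number as a term, the compared stages only, limma-voom on recovered reads, and leaving out each library. Sequences and promoter motifs were not analysed here.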

Additional observations from a re-analysis of the deposited data

How the results depend on the processing

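AMBN, ENAM and AMEL were called higher at E60 in all 19 alternatives of both comparisons, with log2 fold changes of 9.78 to 11.38, 8.47 to 12.02 and 8.40 to 10.50 against E50 and 9.49 to 10.62, 7.45 to 8.62 and 7.36 to 8.77 against E40. Members called between E60 and E50 numbered 3 to 4 when each library was left out. The 2 calls between E50 and E40 became 1 with a pseudocount of 1 (AMTN) and 1 with library set as a term (ENAM), and 0 to 2 when each library was left out, with 0 without E40 replicate 1, E50 replicate 2 or E50 replicate 3. In those 3 fits the log2 fold changes were of similar size, at -2.78, -2.65 and -2.44 for ENAM (adjusted p 0.0501 to 0.0546) and 4.43, 5.32 and 5.11 for AMTN (0.0607 to 0.0647), against -2.68 and 5.27 on all 9 libraries. AMTN kept its call in 14 of 19 alternatives and ENAM in 15 of 19. ODAM between E60 and E50 changed sign, ranging from -0.10 to 0.86 when each library was left out, with -0.10 without E60 replicate 1 and -0.01 without E60 replicate 2, and was never called there.

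An alternative with no pseudocount, added after seeing the data, kept the sign of all 6 differences in induction between AMBN, AMEL and ENAM. With a pseudocount of 1 the difference in induction between E60 and E50 reversed to 1.54 for AMBN minus ENAM and 0.39 for AMEL minus ENAM, and that between E60 and E40 to 0.48 for AMEL minus ENAM. Leaving out 1 library put the last at -0.51 to 0.20, with 0.20 without E40 replicate 2 and 0.15 without E60 replicate 2, whereas AMBN minus AMEL stayed at 1.09 to 1.37 against E50 and 1.85 to 2.14 against E40.

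Of the other genes of enamel formation, 0 of 16 were called between E60 and E50, where 0.0510% of rows were called higher and 0.0204% lower. With median-ratio scaling 8 of 17 were called higher, where 0.348% of rows were. With library set as a term 3 of 16 were called higher, where 0.0867% of rows were. Limma-voom called 3. Leaving out each library gave 0 to 11, with 3 without E60 replicate 2. The 11, without E60 replicate 1, were 6 higher and 5 lower of 16, where 20.0% and 39.1% of rows were. Between E60 and E40 there were 2 calls, where 0.663% of rows were called higher and 1.14% lower. They became 9 with median-ratio scaling, where 2.03% and 1.63% were, and 1 rescaled to TPM, where 0.595% and 0.728% were. They became 1 with a pseudocount of 0.01, with no filter on low values or with limma-voom, and 0 with the compared stages only. Leaving out each library gave 0 to 8, with 8 without E60 replicate 2. For the settings named without a share of all rows, that share is not given here. The cause of these differences between settings was not tested.

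Replicate numbers did not pair the libraries, since the deviations of same-numbered libraries correlated at -0.52 to 0.11. With the replicate block the members called stayed at 2, 3 and 3 for E50 against E40, E60 against E50 and E60 against E40, while the 2 other enamel genes called between E60 and E40 became 0. Depth limits AMTN and ODAM in the 5 lower-depth libraries, where 1 read is worth 0.472 to 1.54 FPKM.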
